A study of Mus musculus with 6 samples.

Results

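The autophagy genes are a set of 33 genes of the pathway by which a cell encloses part of its own cytoplasm in a membrane and digests it in the lysosome. They were taken by name, and 32 of the 33 were measured among the 18193 genes that the array values cover. RNA came from mouse blood-forming cells of the strain C57BL/6, all wild type, sorted by flow cytometry into LSK cells (lineage low, Sca1+, Kit+; 3 arrays) and LK cells (lineage low, Sca1-, Kit+; 3 arrays). Both gates therefore require Kit and low lineage markers, and they differ in Sca-1. The labels call the LSK gate hematopoietic stem cells, but it also holds multipotent progenitors, and the LK gate holds a mixture of committed progenitors. The labels give no age, and they do not say whether an array holds 1 mouse or a pool, so the p-values rest on the spread among these arrays, part of which may be technical. In such sorted bulk samples, fewer cells of a type and less RNA per cell cannot be told apart.

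Autophagy starts at a kinase complex around Ulk1, which turns on a lipid kinase complex around Becn1 and Pik3c3. Membrane is then supplied by Atg9a, the lipid transfer proteins Atg2a and Atg2b and the lipid-binding Wipi proteins. A pair of ubiquitin-like conjugation reactions joins Atg12 to Atg5 and small Atg8-type proteins, the LC3 and GABARAP families, to the membrane lipid. Mouse studies in which Atg7 or Rb1cc1 was deleted in blood-forming cells reported a loss of stem cell function, and Bnip3l is needed for the removal of mitochondria from maturing red cells. The arrays measured RNA, not the activity of the pathway.

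Each gene was read from its brightest probe set, by mean log2 intensity over the 6 arrays, and populations were compared as LSK minus LK on the log2 scale with limma, with p adjusted over all 18193 genes and a threshold of 0.05. Among the 32 members, 1 was lower in LSK (Atg3), 0 were higher and 31 did not pass. The background over all genes was 6.73% called, 3.84% higher and 2.89% lower. The 1 member called is a share of the members below that background. At an unadjusted p under 0.05 there were 4 members higher and 5 lower, beside 22.4% of all genes. Of the 25 members with a mean log2 of at least 4, 4 were higher and 4 lower, beside 1372 and 1783 of 7508 genes. The labels number the arrays 1 to 3 in both populations and arrays with the same number deviated together, so the model was also fitted with that number as a blocking term. With this replicate block 5 members were higher (Ulk2, Rb1cc1, Atg14, Atg7 and Gabarapl1) and 3 lower (Atg3, Atg5 and Atg4b), where 14.4% of all genes were called, 7.02% higher and 7.36% lower. At a mean log2 of at least 4, the fit with the block called 8 of 25 members, a share close to the 30.5% of all genes at that level. Without the block 1 of these 25 members was called, beside 14.6% of those genes.

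The median log2 difference of the members was 0.10, with quartiles at -0.33 and 0.40, against a median of -0.02 and quartiles at -0.25 and 0.19 over all genes. Genes with a mean log2 intensity of at least 4 had a median of -0.09, and the 25 members at that level had a median of 0.24. The differences ran both ways, from -0.91 for Atg5 to 1.75 for Gabarapl1, with 17 members above 0 and 15 below. Only 2 members, Atg7 and Gabarapl1, differed by a log2 of 1 or more, 6.25% of the members beside 9.44% of all genes (8% and 20.5% at a mean log2 of at least 4). The 3 arrays of each population did not overlap for 4 members with LSK above (Rb1cc1, Atg14, Atg7 and Gabarapl1) and 4 with LSK below (Atg3, Atg16l1, Atg4a and Atg4b), and 28.0% of all genes had no overlap. At a mean log2 of at least 4, it was 4 above and 3 below of 25 members, beside 1420 and 1818 of 7508 genes. Other settings called 2 members after renewed quantile normalisation (9.41% of all genes), 3 after loess normalisation (9.27%), 2 of 15 with a mean log2 of at least 5 (23.2%), 2 on the mean of a gene's probe sets (5.35%) and 1 under trend and robust variances (8.43%). Without LSK replicate 1, 2 or 3 they called 0, 0 and 1 (1.77%, 3.73% and 6.98% of all genes), without LK replicate 1, 2 or 3 they called 0 each (4.22%, 4.22% and 1.68%), and without both arrays numbered 2 they called 0 (2.95%). Of the arrays with the same number, LSK was above LK for 17, 18 and 17 of the 32 members in pairs 1, 2 and 3. Over all genes these shares were 47.6%, 47.8% and 46.5%. In all 3 pairs LSK was above for 8 members and below for 7, beside 4105 and 4935 of all 18193 genes. Genes whose populations do not overlap fall in these counts by construction.

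**Figure D1:**
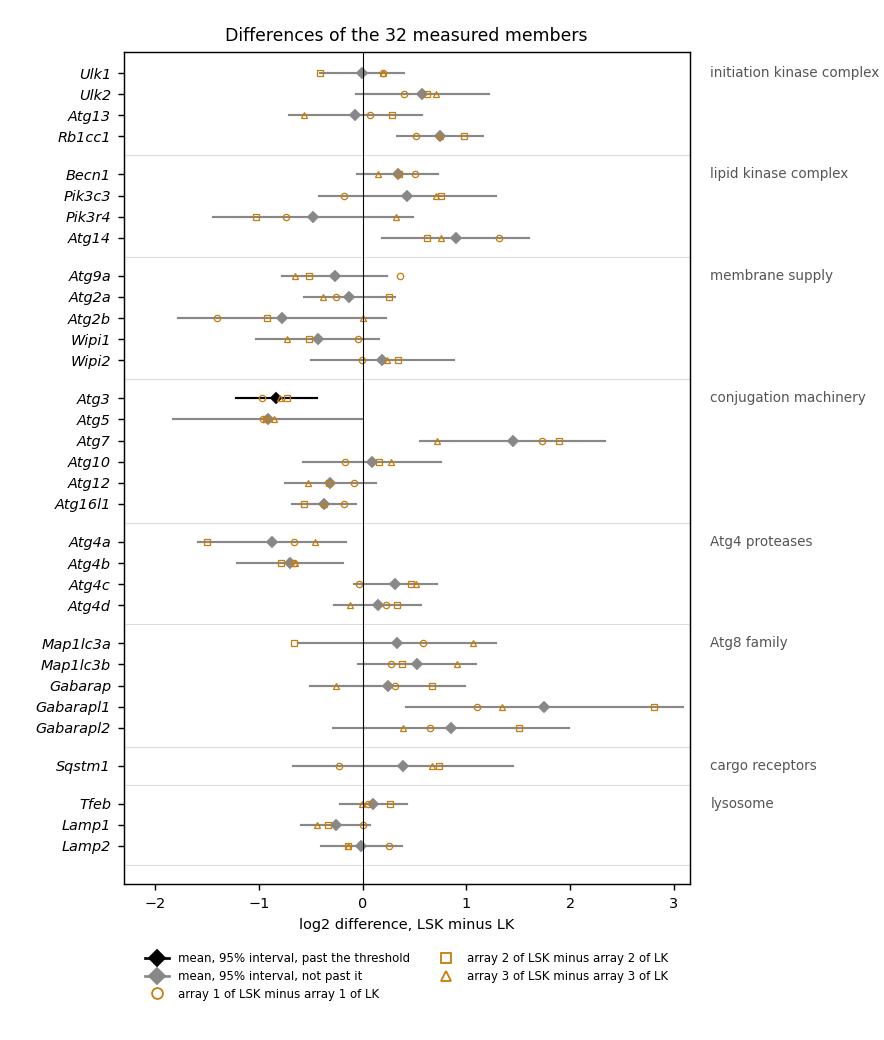
Log2 differences (LSK minus LK, horizontal axis) of the 32 measured members, grouped by role from top to bottom. Diamonds are means over 3 arrays of each population with their 95% intervals from limma, and open orange marks are the 3 differences between arrays of the same number. Atg3, in black, is the member past the threshold at an adjusted p under 0.05, and before adjustment the intervals of Rb1cc1, Atg14, Atg7 and Gabarapl1 also lie above 0 and those of Atg5, Atg16l1, Atg4a and Atg4b below 0.

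The gates and the libraries have features that stand beside all these values. Of 9 measured stem and multipotent cell markers, 8 were higher in LSK (all but Slamf1), with Mecom the brightest there and Hoxa9 in LK, and a summed linear intensity of 4276 to 5306 in LSK arrays and 317 to 516 in LK arrays. Of 10 measured erythroid markers, 6 were lower in LSK and 3 stayed under a log2 of 4 in both populations, with sums of 699 to 1162 in LSK and 4609 to 8440 in LK and Tfrc the brightest. Of 6 granulocyte and monocyte progenitor markers, 4 were lower in LSK, with sums of 4382 to 8859 in LSK and 13199 to 24990 in LK and Mpo the brightest. Of 7 mature neutrophil markers, 0 passed, with sums of 12717 to 19025 in LSK and 9565 to 18209 in LK, and S100a8 was the brightest. The summed levels of 6 megakaryocyte markers, led by Pf4, were 166 to 205 in LSK and 196 to 460 in LK with 0 passing. Those of 6 mast cell and basophil markers, led by Gata2, were 1087 to 1318 in LSK and 804 to 1868 in LK with 1 (Ms4a2) lower. Gata2 weighs most in those sums, with mean log2 intensities of 10.07 in LSK and 9.47 in LK, against 5.36 and 8.34 for Cpa3. Its difference was 0.60, while 4 of the 6 markers had differences below 0, down to -2.98 for Cpa3. For macrophages the sums were 54.7 to 97.2 in LSK and 61.8 to 347.9 in LK, with 6 of 7 markers under a log2 of 4 in both populations, all but Vcam1, and 1 of those 6 (C1qb) higher. B cells (40.2 to 51.0 in LSK and 45.3 to 56.9 in LK, 4 of 5 under that level, all but Cd79b) and T and NK cells (639 to 1022 in LSK and 974 to 2539 in LK, 5 of 6 under it, all but Nkg7) had 0 markers passing. With the replicate block 4 of the 7 neutrophil markers were higher (Ltf, Camp, Ngp and Mmp9, adjusted p from 0.0154 to 0.0439), 7 erythroid and 5 granulocyte and monocyte progenitor markers were lower, and Vcam1 of the macrophage list was lower. In that fit 1 megakaryocyte marker was higher (Gp9) and 1 lower (Pf4), and 3 mast cell and basophil markers were lower (Cpa3, Mcpt8 and Ms4a2). The part of these markers in the members' differences was not tested. Control probes for Actb and Gapdh lie at both ends of the transcript, and the gap between their 3' and 5' log2 intensities, which widens with degraded RNA or short amplification products, averaged 2.32, 2.32 and 3.30 in LSK and 3.26, 3.94 and 3.40 in LK. With that measure as a covariate 0.137% of all genes and 0 members were called. The gap largely followed population, with means of 2.64 in LSK (2.32 to 3.30) and 3.53 in LK (3.26 to 3.94). With 6 arrays the fit can hardly tell the gap and population apart, so a call lost in it does not separate them. The arrays numbered 2 had upper-quartile intensities of 22.1 in LSK and 20.8 in LK, against 25.6 and 25.8 in the other LSK arrays and 24.9 and 24.3 in the other LK arrays. Array 2 was the lowest of its population for 21 of the 32 members in LSK and 20 in LK (65.6% and 62.5%), against 41.8% and 41.2% of all genes. At a mean log2 of at least 4, these shares were 72.0% and 60.0% of 25 members, against 56.7% and 54.4% of all genes.

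The initiation complex holds the kinases Ulk1 and Ulk2, the adaptor Atg13 and the scaffold Rb1cc1, also called FIP200, and none of these 4 passed. Rb1cc1 had log2 intensities of 7.65, 8.19 and 7.79 in LSK and 7.14, 7.21 and 7.04 in LK. The 3 LSK arrays all lay above the 3 LK arrays. The log2 difference was 0.75 (SE 0.17), or 1.68-fold, and limma gave an adjusted p of 0.0528, and 0.0308 with the replicate block. Its probe sets disagreed: the next brightest of 3 had a difference of -0.05, and the mean of all 3 gave 0.32 (adjusted p = 0.203).

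Ulk2 had log2 intensities of 6.16, 5.58 and 6.23 in LSK and 5.76, 4.96 and 5.53 in LK. The populations overlapped on this probe set and array 2 was low in both, but LSK was above in 3 of 3 pairs. The log2 difference was 0.57 (SE 0.27, 1.49-fold, adjusted p = 0.274, 0.0488 with the replicate block). A slightly dimmer probe set of Ulk2 had 5.93, 6.45 and 6.13 in LSK and 5.27, 4.08 and 4.60 in LK, and another had 4.68, 5.25 and 4.55 in LSK and 3.30, 3.88 and 3.76 in LK. On both of these all LSK arrays lay above all LK arrays. Their differences of 1.52 and 1.18 passed limma over all probe sets (adjusted p = 0.0475 and 0.0468), where 4.30% of probe sets were called. The fourth probe set, at a mean log2 of 3.00, had a difference of 0.01, and the mean of all 4 gave 0.82 (adjusted p = 0.0261). Ulk1, with log2 intensities of 4.54 ± 0.27 in LSK and 4.54 ± 0.096 in LK (SD, n = 3 each), had a difference of -0.005 (95% interval -0.41 to 0.40), which turned to 0.09 after renewed loess normalisation. Atg13 stayed under a log2 of 4.1 on all 6 arrays, with a difference of -0.07.

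**Figure D2:**
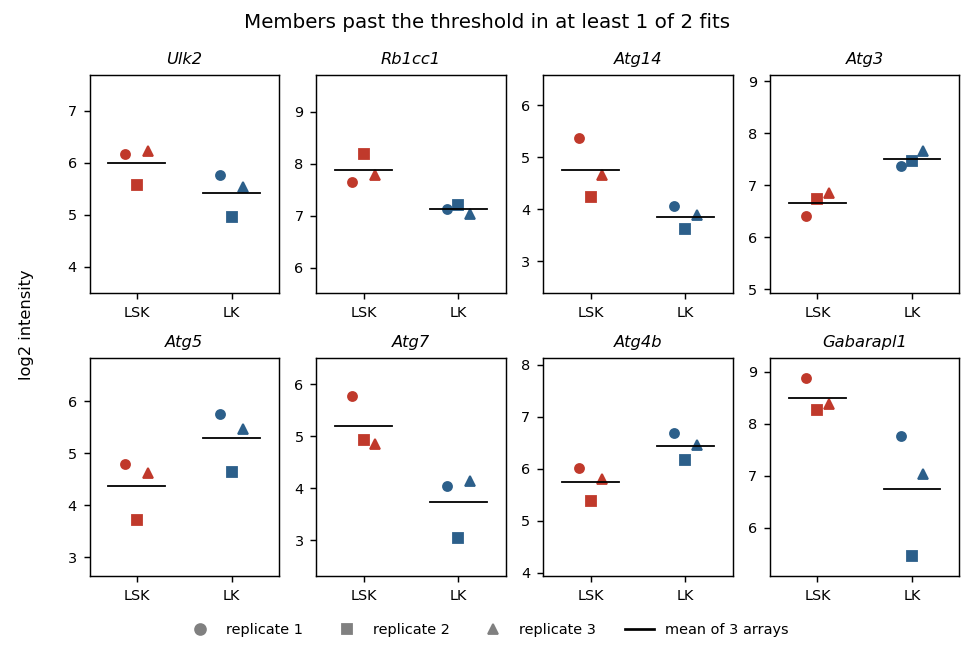
Log2 intensity (vertical axes, each spanning 4.2 log2 units) on each of 3 LSK arrays in red and 3 LK arrays in blue for the 8 members past the threshold in the fit without or with the replicate block. Bars are means of 3 arrays, and circles, squares and triangles are replicates 1, 2 and 3. Array 2 is the lowest of both populations for Ulk2, Atg14, Atg5, Atg4b and Gabarapl1, and LK array 2 of Gabarapl1 stands furthest from its group, at 5.45.

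The lipid kinase complex makes the phosphoinositide that marks the growing membrane, and none of its 4 members passed. Atg14, the subunit that directs the complex to autophagy, had log2 intensities of 5.37, 4.24 and 4.65 in LSK and 4.06, 3.62 and 3.89 in LK. LSK lay above LK without overlap, though the LK values were low for this array, where RMA compresses differences. The log2 difference was 0.90 (SE 0.30, 1.86-fold, adjusted p = 0.133, 0.0304 with the replicate block). Becn1, the scaffold of the complex, had log2 intensities of 10.16 ± 0.19 in LSK and 9.82 ± 0.20 in LK (SD, n = 3 each), a difference of 0.34 (SE 0.16, limma adjusted p = 0.293). The catalytic subunit Pik3c3 had a difference of 0.43 (95% interval -0.42 to 1.28) and its regulatory subunit Pik3r4 one of -0.48 (-1.44 to 0.48), intervals that span more than 2-fold.

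The 5 members that supply membrane showed 0 calls in both fits. Atg2b, a lipid transfer protein, had log2 intensities of 4.21, 3.47 and 4.79 in LSK and 5.62, 4.39 and 4.78 in LK, with a difference of -0.77 (SE 0.42, adjusted p = 0.350). The populations overlapped, with nearly equal values on the arrays numbered 3. A dimmer Atg2b probe set, with 2.84, 2.79 and 3.20 in LSK and 3.78, 3.42 and 3.86 in LK, did not overlap (difference -0.75, SE 0.18, limma adjusted p = 0.0744 over all probe sets), and the mean of its 3 probe sets gave -0.64 (adjusted p = 0.0806). The other 4 had differences of -0.43 (Wipi1), -0.27 (Atg9a, the membrane-spanning scramblase), -0.13 (Atg2a, under a log2 of 4 in both) and 0.19 (Wipi2), with adjusted p from 0.376 to 0.764.

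The conjugation machinery held the member that passed. Atg3, the E2-like enzyme that passes Atg8-type proteins to the lipid, had log2 intensities of 6.41, 6.74 and 6.86 in LSK and 7.38, 7.46 and 7.65 in LK. Every LSK array lay below every LK array, and the replicates were close. The level was 1.78-fold lower in LSK (log2 difference -0.83, SE 0.16, limma adjusted p = 0.0352, 0.0178 with the replicate block). Its second probe set, at a mean log2 of 3.07, had a difference of -0.35. Of the 6 fits that each left out 1 array, it passed only in that without LSK replicate 3 (adjusted p = 0.0419), and in the other 5 the adjusted p went up to 0.128. The call was also lost after renewed quantile (0.0631) or loess normalisation (0.0781), under trend and robust variances (0.0699), with the second array of each population removed (0.112) and once the 3' to 5' gap entered the fit (0.516). The difference stayed between -0.93 and -0.59 in all 14 alternatives.

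Atg7, the E1-like enzyme that activates both Atg12 and the Atg8-type proteins, had a difference of the opposite sign to Atg3, which takes the Atg8-type proteins over from it. It had log2 intensities of 5.78, 4.93 and 4.86 in LSK and 4.05, 3.04 and 4.14 in LK, where the mean of 3.74 lay under a log2 of 4. All LSK arrays lay above all LK arrays. The log2 difference was 1.45 (SE 0.37, 2.73-fold) with an adjusted p of 0.0699, which was 0.0220 with the replicate block, 0.0453 after renewed quantile normalisation, 0.0258 after loess and 0.0490 with trend and robust variances. The other 3 of its 4 probe sets lay under a mean log2 of 4 and had differences of -0.30, -0.02 and 0.02, so the mean of the 4 gave 0.29 (adjusted p = 0.314), and with the 3' to 5' covariate the value was 0.71.

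Atg5, which Atg12 is joined to, had log2 intensities of 4.80, 3.72 and 4.62 in LSK and 5.76, 4.64 and 5.47 in LK. Within each pair of arrays LSK lay below LK by nearly the same amount, while array 2 was low in both populations. The difference was -0.91 (SE 0.38, adjusted p = 0.222, 0.0131 with the replicate block), and the mean of its 3 probe sets gave -0.16. Atg16l1, the partner that directs the Atg12-Atg5 conjugate to the membrane, had 3.25, 3.02 and 3.20 in LSK and 3.43, 3.58 and 3.57 in LK, without overlap but low on the array's scale (difference -0.37, adjusted p = 0.154). Atg12 itself had a difference of -0.31 (adjusted p = 0.392), and Atg10, the E2-like enzyme that acts on it, one of 0.09 (95% interval -0.57 to 0.75).

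The promoters of members with differences of both signs are shown with the short motif CACGTG in capitals, the core of the site that Tfeb and its relatives recognise. Of the 33 members, 26 had an entry in the RefSeq promoter table (build GRCm38.p6), and Rb1cc1, Becn1, Pik3c3, Atg12, Atg16l1, Map1lc3a and Bnip3l had none. In the 250 bases before the start site, searched on both strands, CACGTG stood in 4 of the 30 member promoters (13.3%), those of Lamp1, Atg3, Atg7 and Atg5, against 6.02% of all 32851 promoters in the table. The sequences of these 4 and that of Gabarapl1, the member with the largest difference and without the motif, read 5′ to 3′ on the strand of the gene. Atg3 lies on the plus strand at chr16:45158579-45158828, Atg5 on the plus strand at chr10:44268089-44268338, Atg7 on the plus strand at chr6:114670846-114671095, Lamp1 on the plus strand at chr8:13158911-13159160 and Gabarapl1 on the plus strand at chr6:129532942-129533191.
Atg3: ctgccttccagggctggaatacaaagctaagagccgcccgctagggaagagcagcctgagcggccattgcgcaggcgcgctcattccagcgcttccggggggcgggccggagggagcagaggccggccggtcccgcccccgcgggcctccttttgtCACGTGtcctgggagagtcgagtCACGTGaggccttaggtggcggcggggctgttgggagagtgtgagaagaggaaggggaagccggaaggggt
Atg5: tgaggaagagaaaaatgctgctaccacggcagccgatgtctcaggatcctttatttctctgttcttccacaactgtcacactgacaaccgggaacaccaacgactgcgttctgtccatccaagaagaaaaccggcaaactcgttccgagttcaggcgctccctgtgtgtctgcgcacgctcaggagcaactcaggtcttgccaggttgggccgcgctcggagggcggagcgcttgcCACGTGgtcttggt
Atg7: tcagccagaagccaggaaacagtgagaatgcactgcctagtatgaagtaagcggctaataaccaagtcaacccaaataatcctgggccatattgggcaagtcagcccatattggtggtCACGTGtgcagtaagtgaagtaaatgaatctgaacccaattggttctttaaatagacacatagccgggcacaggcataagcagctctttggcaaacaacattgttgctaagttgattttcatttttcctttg
Lamp1: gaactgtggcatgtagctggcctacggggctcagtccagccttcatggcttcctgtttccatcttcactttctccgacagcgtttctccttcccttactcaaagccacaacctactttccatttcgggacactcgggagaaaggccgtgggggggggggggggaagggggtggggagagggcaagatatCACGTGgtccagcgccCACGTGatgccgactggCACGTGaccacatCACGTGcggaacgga
Gabarapl1: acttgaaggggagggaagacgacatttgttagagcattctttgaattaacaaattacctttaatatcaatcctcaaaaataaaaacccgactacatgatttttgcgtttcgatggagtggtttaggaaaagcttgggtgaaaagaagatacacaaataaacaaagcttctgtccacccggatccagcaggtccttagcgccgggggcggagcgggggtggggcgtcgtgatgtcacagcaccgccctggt

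The motif begins 94 and 71 bases before the start in Atg3, 14 bases before it in Atg5, 132 bases before it in Atg7 and 61, 45, 28 and 15 bases before it in Lamp1. The 4 genes that hold it had log2 differences of -0.83, -0.91, 1.45 and -0.26, so it stood in front of members on both sides of 0. The GATA motifs AGATAA and CTTATC, which overlap each other where AGATAAG occurs, stood in 3 of the 30 member promoters in at least 1 form, those of Atg4d, Atg2b and Atg4a, against 13.4% of all promoters. A match is a description of the letters in this window.

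The Atg4 proteases trim Atg8-type proteins before they are joined to lipid and release them afterwards. Atg4b, the one with the broadest activity in mammals, had log2 intensities of 6.01, 5.38 and 5.81 in LSK and 6.68, 6.16 and 6.45 in LK. All LSK arrays lay below all LK arrays. The difference was -0.70 (SE 0.22, 1.62-fold) with an adjusted p of 0.113, 0.0250 with the replicate block and 0.0370 after renewed quantile normalisation. The other 2 probe sets of Atg4b, both under a mean log2 of 4, had differences of -0.02 and 0.03. Atg4a had 3.87, 3.16 and 4.36 in LSK and 4.53, 4.65 and 4.81 in LK, also without overlap (difference -0.87, adjusted p = 0.146, 0.0624 with the replicate block). Atg4c and Atg4d had differences of 0.31 and 0.15, with intervals of -0.09 to 0.72 and -0.28 to 0.57.

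All 5 members of the Atg8 family, the proteins that coat the membrane and bind cargo receptors, had differences above 0, 0 passed without the replicate block and 1 (Gabarapl1) with it. The Gabarap value was -0.08 without LK replicate 2 and -0.32 with the 3' to 5' covariate. Gabarapl1 had log2 intensities of 8.88, 8.26 and 8.38 in LSK and 7.77, 5.45 and 7.03 in LK. The LSK arrays lay above all LK arrays and spread less than they did (SD 0.33 and 1.18), while LK array 2 stood well below the other LK arrays. The difference was 1.75 (SE 0.56, 3.37-fold, adjusted p = 0.122, 0.0287 with the replicate block), and it was 1.10 without LK replicate 2 and 0.79 with the 3' to 5' covariate. The second Gabarapl1 probe set had 7.54, 6.88 and 7.35 in LSK and 6.66, 4.76 and 5.90 in LK, a difference of 1.49 (SE 0.46, limma adjusted p = 0.138 over all probe sets).

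Gabarapl2 had log2 intensities of 7.06, 6.23 and 6.72 in LSK and 6.41, 4.72 and 6.32 in LK, again with a low LK array 2. The difference of 0.85 (SE 0.48, adjusted p = 0.364) became 0.30 without that array. A second Gabarapl2 probe set had 5.57, 5.30 and 5.59 in LSK and 5.12, 4.93 and 4.96 in LK, without overlap and with close replicates. Its difference was 0.49 (SE 0.14, limma adjusted p = 0.105 over all probe sets). Map1lc3b, the LC3 form most used as a marker of autophagosomes, had 9.41, 8.97 and 9.74 in LSK and 9.13, 8.59 and 8.83 in LK. LSK was above in 3 of 3 pairs, but the populations overlapped (difference 0.52, SE 0.24, adjusted p = 0.260). All 4 of its probe sets had differences of 0.39 to 0.52. Gabarap and Map1lc3a had differences of 0.24 and 0.33, with 95% intervals of -0.50 to 0.99 and -0.63 to 1.28. The Map1lc3a probe set carries a suffix that marks possible cross-hybridisation.

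Of the 2 cargo receptors, Bnip3l has no value here, since its 3 probe sets are annotated to both Bnip3l and its pseudogene. Sqstm1, or p62, which carries ubiquitin-marked cargo, had log2 intensities of 5.42, 5.11 and 6.31 in LSK and 5.64, 4.37 and 5.64 in LK. The populations overlapped (difference 0.39, SE 0.44, adjusted p = 0.673), and the difference was -0.03 without LK replicate 2. A dimmer Sqstm1 probe set had 4.89, 4.01 and 5.68 in LSK and 3.88, 2.59 and 4.12 in LK, with a difference of 1.33 (limma adjusted p = 0.233).

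Among the lysosomal members, Tfeb, the transcription factor of lysosomal genes, stayed at 2.71 to 3.02 on all 6 arrays, a level where the array resolves little, so its difference of 0.11 carries little information. Lamp1, a membrane protein of the lysosome, had 9.58, 9.37 and 9.43 in LSK and 9.58, 9.71 and 9.87 in LK (difference -0.26, 95% interval -0.59 to 0.07). Lamp2, its relative needed for fusion, had 10.67, 10.76 and 10.71 in LSK and 10.42, 10.90 and 10.85 in LK. The difference was -0.01 (95% interval -0.40 to 0.38), which turned to 0.05 after renewed quantile and 0.06 after loess normalisation. The 4 Lamp2 probe sets disagreed: the 2 brightest had differences of -0.01 and 0.05, and another had 5.61, 5.91 and 7.01 in LSK and 7.06, 7.53 and 7.80 in LK. On that probe set all LSK arrays lay below all LK arrays, with a difference of -1.29 (SE 0.38, limma adjusted p = 0.122). Which transcripts each probe set matches was not analysed here.

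**Figure D3:**
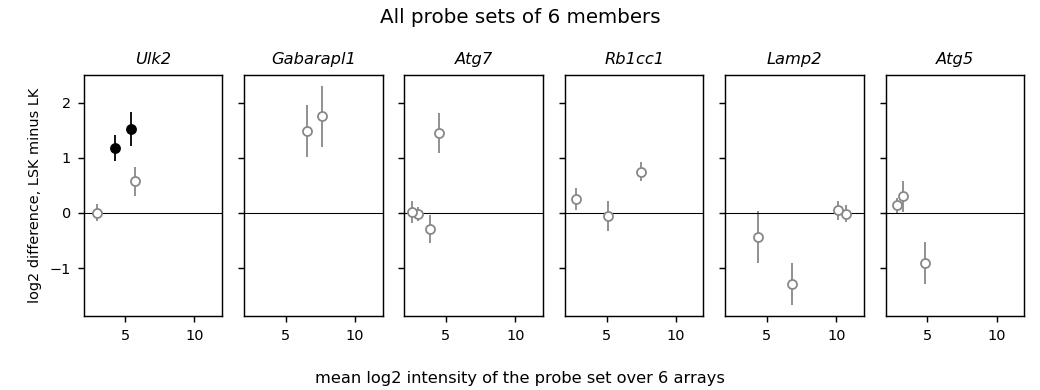
Log2 difference (LSK minus LK, vertical axis, bars are SE) of each probe set of 6 members against its mean log2 intensity over 6 arrays (horizontal axis). Filled black points passed an adjusted p under 0.05 over all probe sets. Both such points belong to Ulk2 (1.52 and 1.18), the 2 Gabarapl1 probe sets lie together at 1.75 and 1.49, and the probe sets of Atg7 and Lamp2 spread apart.

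Over all 77 probe sets of the members, 2 were higher (both Ulk2) and 1 lower (Atg3) at an adjusted p under 0.05. Of all 34945 probe sets with 1 gene symbol, 4.30% passed at that level. At an unadjusted p under 0.05 there were 9 higher and 7 lower, against 19.6% of all probe sets. Of the 32 members, 23 had more than 1 probe set, and 0 had probe sets in opposite directions at that unadjusted p.

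The other genes of the pathway were taken from 5 lists of 93 genes, of which 86 were measured. In all, 6 of them were higher in LSK and 3 were lower, the other 77 did not pass, and the median log2 difference was -0.05. The 9 called are 10.5% of the 86, beside 6.73% of all genes. With the replicate block 8 were higher and 10 lower, 20.9% of the 86, beside 14.4% of all genes. Among all genes with a mean log2 of at least 4, 14.6% were called, and 30.5% with the block. Of the 86, 16.3% had both means under a log2 of 4, against 56.2% of all genes.

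Receptors of selective autophagy and mitochondrial removal held 4 of the 9 calls. Of 16 measured genes 3 were higher and 1 lower, 12 did not pass, and the median was 0.37. The 4 calls are a share above the 6.73% of all genes and the 14.6% at a mean log2 of at least 4. All 16 genes had both means at that level. With the replicate block 4 were higher and 1 lower. These 5 are a share above the 14.4% of all genes but close to the 30.5% at that level. Retreg1, a receptor for the digestion of endoplasmic reticulum, had log2 intensities of 10.05, 9.93 and 9.87 in LSK and 7.87, 7.91 and 8.07 in LK. The populations stood far apart, with close replicates in both. Its level in LSK exceeded that in LK by 2.00 log2 units (SE 0.13, limma adjusted p = 0.00125), and it passed in each of the 6 fits without 1 array (adjusted p up to 0.0108) and in all other alternatives except the 3' to 5' covariate (difference 1.91, adjusted p = 0.0634). Nbr1, a cargo receptor related in function to Sqstm1, had 9.43, 9.65 and 9.41 in LSK and 8.65, 8.48 and 8.49 in LK (1.94-fold higher, adjusted p = 0.0123). Fundc1, a receptor on the outer mitochondrial membrane, had 9.34, 9.18 and 9.05 in LSK and 8.49, 8.22 and 8.40 in LK (1.77-fold higher, adjusted p = 0.0240), and was named after its values were seen. Phb2, an inner mitochondrial membrane protein that also serves as a receptor, was lower, with 9.04, 8.83 and 9.04 in LSK and 9.90, 9.82 and 9.71 in LK (1.79-fold, adjusted p = 0.0169). Of the fits that left out 1 array, Nbr1 lost its call without LSK replicate 1 or LK replicate 3 (up to 0.0641), Phb2 without those or LK replicate 1 (up to 0.0659), and Fundc1 in each fit lacking 1 array except those without LSK replicate 3 or LK replicate 1 (up to 0.0921). Nbr1, Fundc1 and Phb2 each also lost it on the mean of their probe sets (adjusted p = 0.0897, 0.215 and 0.0656), with the second array of each population removed (0.0593, 0.0946 and 0.0736) and under the 3' to 5' covariate (0.291, 0.440 and 0.327).

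Among 23 measured genes of mTORC1 and AMPK, the nutrient and energy sensors upstream of Ulk1, 1 was higher and 1 lower, 21 did not pass, and the median was -0.06. The 2 calls are 8.70% of the 23, beside 6.73% of all genes. Prkag2, a regulatory subunit of AMPK, had log2 intensities of 5.98, 6.16 and 5.89 in LSK and 4.09, 4.90 and 4.40 in LK. Prkag2 rose by 1.55 on the log2 scale in LSK, 2.92-fold (SE 0.22, limma adjusted p = 0.0137), and the call was lost under the 3' to 5' covariate (0.201) and in the fits without LSK replicate 1 or LK replicate 3 (up to 0.0654). Rragc, a GTPase that brings mTORC1 to the lysosome, had 7.76, 7.47 and 7.84 in LSK and 8.51, 8.34 and 8.50 in LK. It was 1.70-fold lower in LSK (log2 difference -0.76, SE 0.15, adjusted p = 0.0327), and the call held in only 1 of the 6 fits without 1 array, that without LSK replicate 3 (up to 0.123 in the others), and was lost without both arrays numbered 2 (0.0755) and with the covariate (0.453).

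In the lysosome list 1 of 20 measured genes was higher and 1 lower, 18 did not pass, and the median was -0.10. The 2 calls are a share above the 6.73% of all genes and below the 14.6% at a mean log2 of at least 4. With the replicate block 1 was higher and 4 were lower. These 5 are a share above the 14.4% of all genes and below the 30.5% at that level. Of the 20 genes, 1 had both means under a log2 of 4. Ctsl, the protease cathepsin L, had 4.16, 4.71 and 4.49 in LSK and 2.99, 3.47 and 3.61 in LK (2.13-fold higher, limma adjusted p = 0.0373), where the LK mean of 3.36 lay under a log2 of 4. Its call was lost in each of the 6 fits without 1 array (up to 0.0945), after renewed quantile (0.0558) or loess normalisation (0.0514), on the mean of its probe sets (0.0750), with the second array of each population removed (0.121) and under the 3' to 5' covariate (0.346). Atp6v1b2, a subunit of the proton pump that acidifies the lysosome, had 5.37, 4.94 and 5.52 in LSK and 6.37, 6.26 and 6.13 in LK. The level fell by 0.98 on the log2 scale in LSK, 1.97-fold (limma adjusted p = 0.0295), and passed in 1 of those 6 fits, that without LSK replicate 3 (up to 0.0899 in the others). Its call was also lost on the mean of its probe sets (0.0873), under trend and robust variances (0.0719), without both arrays numbered 2 (0.0804) and with the covariate (0.474). Of 13 measured genes of autophagosome formation, 1 was higher and 0 were lower, 12 did not pass, and the median was -0.24. With the replicate block 1 was higher and 2 were lower. The calls are 7.69% of the 13 without the block and 23.1% with it, beside 6.73% and 14.4% of all genes. Trp53inp2, which binds LC3 and promotes autophagosome formation, had 4.48, 4.50 and 4.42 in LSK and 3.64, 3.62 and 4.03 in LK (1.63-fold higher, limma adjusted p = 0.0449). Its LK mean of 3.76 lay under a log2 of 4. The Trp53inp2 call was lost in each fit without 1 array (up to 0.139), after renewed quantile normalisation (0.0555), on the mean of its probe sets (0.155), under trend and robust variances (0.150), without both arrays numbered 2 (0.157) and with the covariate (0.539). None of 14 measured genes of fusion with the lysosome passed limma, though 3 were higher and 4 lower at an unadjusted p under 0.05, beside 22.4% of all genes. With the replicate block 1 (Tecpr1) was higher and 1 (Vps11) lower, beside 14.4% of all genes; Vps11, a subunit of the tethering complexes of late endosomes and lysosomes, was named after its values were seen. Tecpr1, a tether of autophagosome and lysosome, had the lowest p (log2 difference 0.89, limma adjusted p = 0.0593). It had log2 intensities of 3.27, 3.63 and 4.03 in LSK and 2.64, 2.92 and 2.71 in LK, with both means (3.64 and 2.76) under a log2 of 4. It passed with the replicate block (0.0330), after renewed quantile (0.0400) or loess normalisation (0.0488) and under trend and robust variances (0.0362), and in none of the 6 fits without 1 array (up to 0.180). Tecpr1 also did not pass on the mean of its probe sets, without both arrays numbered 2 or with the 3' to 5' covariate.

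**Figure D4:**
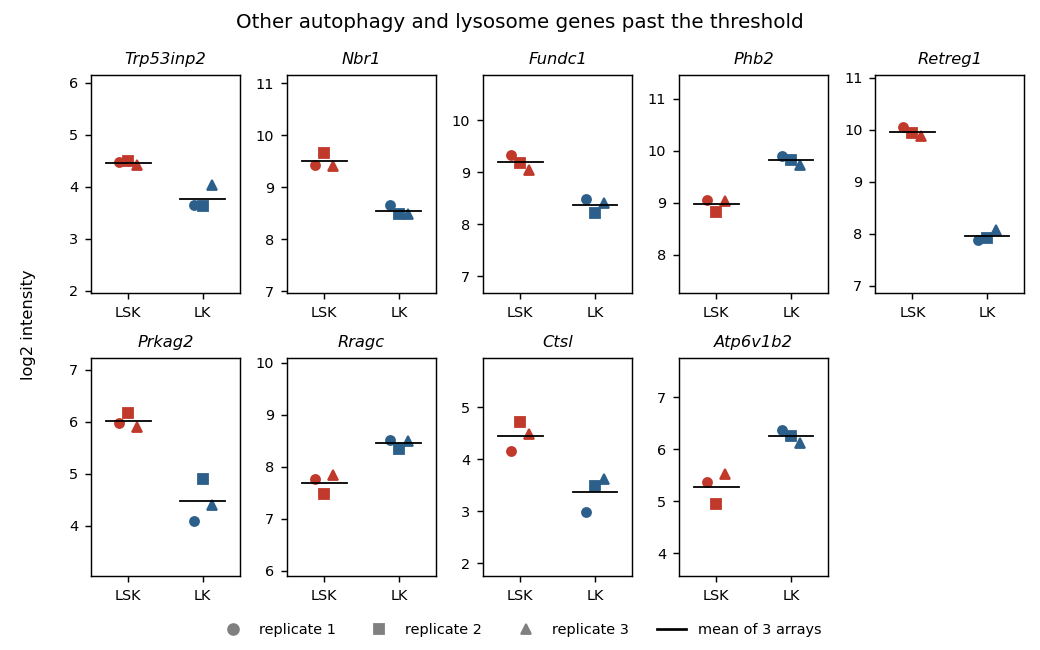
Log2 intensity (vertical axes, each spanning 4.2 log2 units) on 3 LSK arrays in red and 3 LK arrays in blue for the 9 other autophagy and lysosome genes past the threshold. Bars are means of 3 arrays, and circles, squares and triangles are replicates 1, 2 and 3. Retreg1 shows the widest gap, with LSK at 9.87 to 10.05 and LK at 7.87 to 8.07, and the populations do not overlap in any of the 9 genes.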

How the data were processed

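RNA of 3 LSK and 3 LK samples went through linear amplification (Nugen Ovation) before biotin labelling and Affymetrix mouse arrays, per the labels. The submitters' processing notes name RMA, affy and R 2.11.0 for the deposited intensity of each probe set, whose scale is linear judging by the values. Genome build and annotation release are not given in the sources used here; promoters came from RefSeq (GRCm38.p6). RMA gives every array the same distribution of probe values before they are summarised into probe sets, which would hide a general shift. It also compresses differences at low levels. The deposited probe set values were not equal in distribution, with upper-quartile intensities from 20.8 (LK replicate 2) to 25.8 (LSK replicate 3). The number of arrays, 3 per population, limits the precision.

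Control probe sets (64 of 45101) were left out of the tests. Of the rest, 34945 carried 1 gene symbol in the platform annotation, 932 several and 9160 were not listed; symbols were updated by gene identifier (34741 matched). The log2 of the intensity of each gene's brightest probe set was fitted with limma 3.58.1 in R 4.3.3 (two-sided, population as the only term), and p-values were adjusted by Benjamini-Hochberg. The script was tested on simulated data. Errors are in log2 units. A log2 under 4 was taken as near the lower end of the range. A fold divides the larger mean by the smaller.

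Members and lists were chosen with earlier results of these data known. All members are named, and of each other list the 2 genes past the threshold with the largest difference in each direction, or the one with the lowest p; of each marker list the brightest gene of each population, and any other marker gene was named after its values were seen. Arrays with the same number deviated together across genes (r = 0.42, 0.43 and 0.27 for numbers 1, 2 and 3; different numbers gave 0.04 or less), so a pairing was assumed from the data alone. No 2 of the 15 pairs of arrays held identical values. Alternatives were the block, renewed quantile or loess normalisation, a filter at a mean log2 of 5, averaged probe sets, trend and robust variances, each array left out, both arrays numbered 2 left out, and the gap between 3' and 5' control probes as a covariate.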

Additional observations from a re-analysis of the deposited data

How the results depend on the processing

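Over 14 alternatives the members gave 431 values, of which 381 kept direction and side of the threshold, 15 (7 members) passed that had not, 10 (Atg3) lost the call and 25 (10 members) changed sign. The cause was not tested. Members higher and lower numbered 5 and 3 with the replicate block, whose pairing came from the data, 1 and 1 after renewed quantile normalisation, 3 and 0 after loess, 1 and 1 with the log2 filter or averaged probe sets, 1 and 0 with trend and robust variances, and 0 and 0 without both arrays numbered 2 or with the 3' to 5' covariate. Leaving out 1 array gave 0 higher and 0 to 1 lower. The array-wide counts, 699 higher and 526 lower, were 1278 and 1339 with the replicate block, 891 and 821 after quantile normalisation, 371 and 166 without both arrays numbered 2, 25 and 0 with the covariate, and 230 to 584 higher and 76 to 685 lower without 1 array (lowest without LK replicate 3). The other lists, 6 higher and 3 lower, gave 8 and 10 with the replicate block, 6 and 5 after quantile normalisation, 2 and 1 on averaged probe sets, 2 and 0 without both arrays numbered 2, 0 and 0 with the covariate, and 1 to 5 and 0 to 4 without 1 array. The members' median, 0.10, was 0.31 with the filter and -0.031 to 0.16 without 1 array, lowest without LK replicate 2. Signs turned for Lamp2 (0.052 after quantile normalisation, 0.059 after loess, 0.056 without both arrays numbered 2, 0.12 with the covariate) and Ulk1 (0.087 after loess, 0.073 on averaged probe sets, 0.20 without both arrays numbered 2, 0.25 with the covariate), and with the covariate for Pik3r4 (0.10), Atg4d (-0.23) and Gabarap (-0.32). Without 1 array the log2 differences ran from -0.16 to 0.078 for Lamp2, -0.10 to 0.15 for Ulk1, -0.34 to 0.11 for Atg13, -0.18 to 0.27 for Atg10, -0.086 to 0.39 for Wipi2, -0.078 to 0.41 for Gabarap, -0.030 to 0.64 for Sqstm1 and -0.30 to 0.015 for Atg2a. With 3 arrays a population, signal near background limits Atg13, Atg2a, Atg16l1, Atg4d and Tfeb, whose means lie under a log2 of 4 in both.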
